A study of Mus musculus with 8 samples.

Results

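The promoters described here belong to 10 mouse genes whose maternal copy is methylated at a promoter: Plagl1, Grb10, Snrpn, Nnat, Airn, Nap1l5, Inpp5f, Mest, Peg3 and Kcnq1ot1. They were chosen by name, and their CpGs were those listed within 2 kb either side of every start site (TSS) that the GENCODE vM1 annotation of mm9 gives them. This gave 315 of the 757812 CpGs listed in the 8 libraries, spread over 8 of the 10 genes. Peg3 had no listed CpG in its windows and was not analysed here. Kcnq1ot1 is not named in that annotation, so its TSS was placed in mm9 by the only exact match of its 300-base RefSeq promoter sequence, an addition made after the data had been seen, and 12 more CpGs were found there.

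Imprinted genes are expressed from one parental copy. At maternally methylated promoters the mark is set in the oocyte, the paternal copy stays unmethylated, and the difference is kept in somatic tissues through the waves of demethylation after fertilisation. With the maternal copy methylated and the paternal copy not, the average over cells lies at 50%, so the distance of each promoter from 50% and the gap between replicates were described first. In the brain and in neural precursors several of these genes are strongly expressed, among them Nnat, Snrpn, Grb10 and Peg3.

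NPCs were obtained by neural differentiation of A2lox.cre mouse ES cells that carried a doxycycline-inducible shRNA. The groups were NPCs with the non-targeting control (shScr) and NPCs with an shRNA for Tet3 (shTet3), a gene for an enzyme that oxidises 5mC, and doxycycline at 2 µg/ml for 5 days was given to all. Each shRNA had 2 replicates, and the adaptor-ligated MspI fragments of each replicate were split into a BS library, which reads 5mC and 5hmC together, and an oxBS library, which reads 5mC alone. Nothing in the labels says that the replicates were separate cultures or clones. The p-values of limma and of the permutation test therefore measure only the spread between these libraries. Those of the logistic regression and of Fisher's exact test rest on read counts and do not take the spread between replicates as error. The efficiency of the knockdown and the identity of the cells cannot be checked in DNA methylation data. A level here is an average over all cells and both parental copies of a CpG, and fewer methylated cells cannot be told apart from fewer methylated copies per cell.

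Total calls ranged from 42516767 to 61865967 per library. The mean level over all listed CpGs was 27.1% and 32.2% in the shScr oxBS libraries, and 22.5% and 22.9% in the shTet3 oxBS libraries, so that shScr replicate 2 stood above the others. Coverage of 10 or more in all 4 oxBS libraries was reached by 298 of the 315 CpGs and in all 4 BS libraries by 291. The median coverage of the imprinted promoters was 52 calls per CpG in oxBS and 49 in BS. At a coverage of 10 a level of 50% had a Wilson 95% interval of 23.7% to 76.3%, and at a coverage of 54 it had one of 37.1% to 62.9%, which covers counting error only, because PCR copies are not independent molecules.

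Each gene with an annotated TSS had a window rich in a sequence feature that the choice of genes did not use. The hexamer TGCCGC, which in its methylated form is recognised by the zinc-finger protein ZFP57, was counted on both strands, where the forward and reverse forms cannot overlap at the same position. Of the 9 genes with an annotated TSS, 9 had at least 1 window with 5 or more copies, whereas 1.83% of 37273 annotated genes did. The highest count in a window was 12 for Mest, 10 for Snrpn, 8 each for Airn, Nnat and Peg3, 6 for Plagl1 and Inpp5f, and 5 for Grb10 and Nap1l5. For Grb10 the 5 copies lay at the upstream promoter, and the internal promoter region held 4. The lowest count in a window was 0 for Plagl1, Grb10, Inpp5f, Mest and Snrpn. Genes with more TSSs had more windows to reach 5, and CpG content was not matched. The Kcnq1ot1 window held 3 copies. Over all 86842 TSS windows of the same length, 48.0% held a copy and the median was 0. These are matches of letters and not measured binding.

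The MspI fragments below are shown because their CpGs carry the levels given in the next paragraphs. All are from the forward strand of mm9, 5′ to 3′, and the listed CpGs are in capitals. They are chr17:12934456-12934616 (Airn), chr7:150481374-150481523 (Kcnq1ot1), chr6:58856628-58856763 (Nap1l5), chr2:157386047-157386214 (Nnat), chr7:135831732-135831861 (Inpp5f), chr11:11926770-11926884 (Grb10), chr7:67149536-67149787 (Snrpn) and chr6:30685294-30685509 (Mest).
Airn: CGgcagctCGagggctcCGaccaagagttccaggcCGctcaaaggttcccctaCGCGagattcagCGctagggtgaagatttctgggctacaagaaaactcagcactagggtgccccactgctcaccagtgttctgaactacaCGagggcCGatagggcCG
Kcnq1ot1: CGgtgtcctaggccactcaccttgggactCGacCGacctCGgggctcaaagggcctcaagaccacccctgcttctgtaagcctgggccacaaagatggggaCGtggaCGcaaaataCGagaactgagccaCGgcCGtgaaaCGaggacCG
Nap1l5: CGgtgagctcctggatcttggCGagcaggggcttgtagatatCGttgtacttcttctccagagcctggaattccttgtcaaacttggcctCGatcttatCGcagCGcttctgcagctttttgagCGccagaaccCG
Nnat: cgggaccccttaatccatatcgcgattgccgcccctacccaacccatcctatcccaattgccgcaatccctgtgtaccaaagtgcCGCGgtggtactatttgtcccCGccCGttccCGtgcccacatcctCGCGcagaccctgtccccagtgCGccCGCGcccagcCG
Inpp5f: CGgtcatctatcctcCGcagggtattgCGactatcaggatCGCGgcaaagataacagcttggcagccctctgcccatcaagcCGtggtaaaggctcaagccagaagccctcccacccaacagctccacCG
Grb10: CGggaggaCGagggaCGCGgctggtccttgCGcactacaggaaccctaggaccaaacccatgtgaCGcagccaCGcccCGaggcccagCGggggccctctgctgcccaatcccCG
Snrpn: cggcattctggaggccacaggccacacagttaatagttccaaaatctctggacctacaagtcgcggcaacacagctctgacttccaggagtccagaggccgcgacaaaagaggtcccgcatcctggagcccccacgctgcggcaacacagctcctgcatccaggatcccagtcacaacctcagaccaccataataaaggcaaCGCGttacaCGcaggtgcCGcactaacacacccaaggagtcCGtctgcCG
Mest: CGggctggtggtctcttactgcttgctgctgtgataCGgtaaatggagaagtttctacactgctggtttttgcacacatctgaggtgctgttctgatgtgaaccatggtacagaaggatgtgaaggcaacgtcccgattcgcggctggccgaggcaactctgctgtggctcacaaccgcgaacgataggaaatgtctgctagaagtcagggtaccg
The Nnat and Snrpn fragments held 3 copies of the hexamer each and the Inpp5f fragment held 1. All of the Airn, Kcnq1ot1, Nap1l5, Inpp5f and Grb10 CpGs in these fragments were listed, compared with 11 of 16 for Nnat, 6 of 14 for Snrpn and 2 of 11 for Mest. Neighbouring CpGs of one fragment can lie on the same reads, so they are not independent measurements.

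Across the promoters the mean 5mC level ranged from 1.04% at the upstream Inpp5f promoter to 79.9% at Nnat, as averages of the 4 oxBS libraries. Of 10 regions with 5 or more CpGs, Airn, Grb10 (internal promoter), Nap1l5 and Plagl1 had an average over the 4 oxBS libraries between 35% and 65%. Inpp5f (internal promoter), Kcnq1ot1 and Snrpn lay below this range, Nnat lay above it, and the upstream promoters of Grb10 and Inpp5f were largely unmethylated. The plot of the regions by library shows the replicates of each shRNA side by side.

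**Figure D1:**
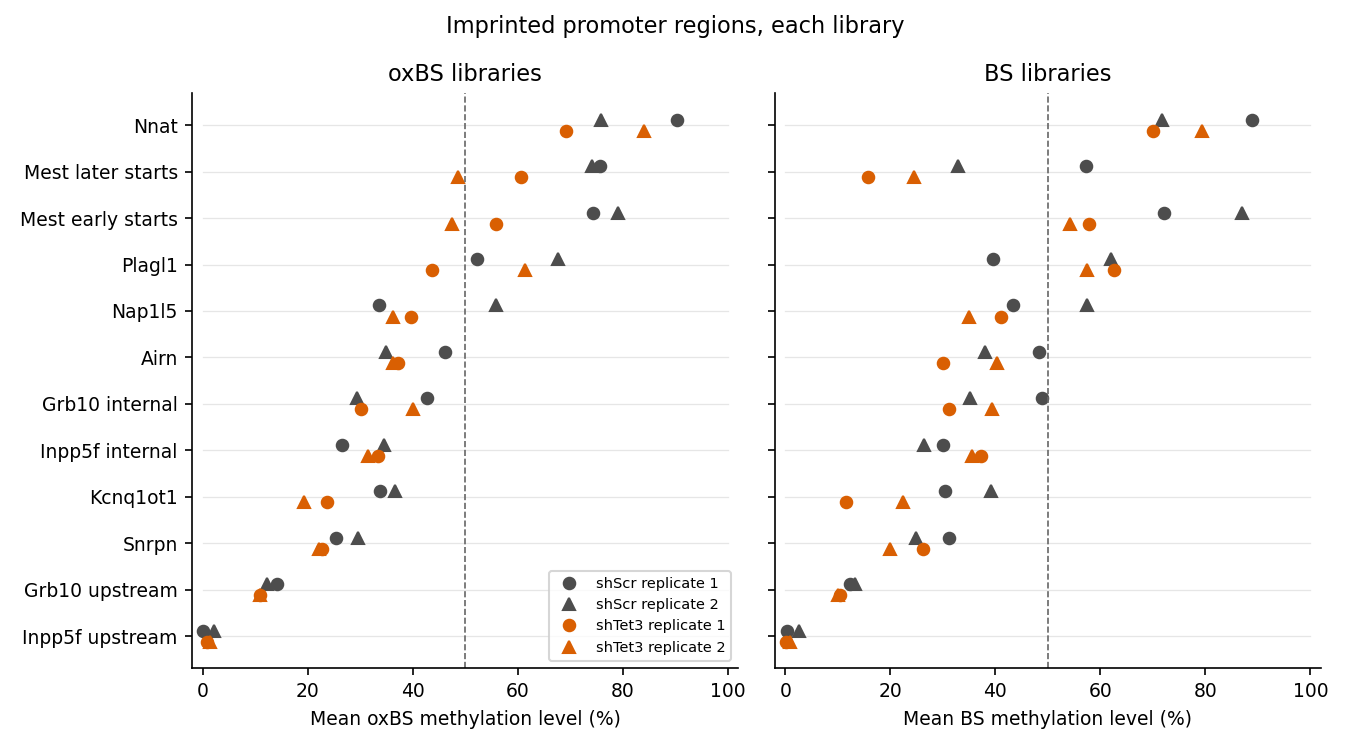
Mean methylation level (%) of each promoter region in the oxBS libraries (left) and BS libraries (right), with grey points for shScr, orange points for shTet3, circles for replicate 1 and triangles for replicate 2; the dashed line is 50%. Nnat lies on the right of the line in all 8 libraries, Snrpn and Kcnq1ot1 lie on the left in all 8, and the Mest regions are the only ones, besides Kcnq1ot1, with more than 10 points between the shRNA means in oxBS.

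Airn and Kcnq1ot1 are long non-coding RNAs made from the unmethylated paternal copy, and each silences neighbouring genes in cis. Airn starts on chromosome 17 between 12934177 and 12934264 inside an intron of Igf2r, and its 14 CpGs lie 192 to 908 bases downstream, in its intron and in a predicted CpG island. Its oxBS levels were 46.1% and 34.8% (shScr) against 37.2% and 36.2% (shTet3). Replicate 1 of shScr was the high library, and the other three lay close together below it. The means were 40.5 ± 8.0% and 36.7 ± 0.736% (SD, n = 2), and the average of all 4 was 11.4 points from 50%. In BS the levels were 48.4% and 38.1% (shScr) against 30.1% and 40.4% (shTet3), and the groups overlapped in both chemistries. The nearer fragment was higher than the farther one in all 4 oxBS libraries (49.3%, 36.8%, 42.1% and 37.8% against 33.2%, 28.5%, 22.4% and 29.6%).

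Kcnq1ot1, antisense to Kcnq1, starts on chromosome 7 at 150482452 on the reverse strand. Its 11 CpGs with sufficient coverage lie 930 to 1078 bases downstream. They read 33.8% and 36.5% in the shScr oxBS libraries and 23.6% and 19.3% in shTet3, so both shTet3 libraries lay below both shScr libraries. The BS libraries gave 30.4% and 39.3% (shScr) against 11.5% and 22.4% (shTet3), again without overlap. Of these 11 CpGs, 7 were called lower in oxBS and 5 in BS, where 13.9% and 13.8% of all CpGs were. The largest called difference was at position 150481481, with 38.2% and 40.7% (shScr) against 16.2% and 17.2% (shTet3) (coverage 68 to 93, pooled difference -22.8 points, q = 7.85e-05, logistic regression). The window as a whole differed by -13.8 ± 3.24 points (SE) in oxBS, with an adjusted p of 0.593 (limma, over all gene windows).

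Nap1l5 is an intronless gene inside an intron of Herc3 that resembles nucleosome assembly proteins. Its TSS is at 58857120 on chromosome 6, reverse strand, and all 18 CpGs lie in its coding exon, 249 to 492 bases downstream. The oxBS levels were 33.6% and 55.7% (shScr) against 39.7% and 36.2% (shTet3). Both shTet3 libraries lay between the shScr libraries, which were 22.1 points apart. This gap was largest in the fragment that begins at 58856762, with 21.3% against 51.4%, and it was 52.9% against 61.4% in the printed fragment. In BS the shScr levels were 43.4% and 57.5% and the shTet3 levels 41.1% and 34.9%. In oxBS 2 of 18 CpGs were called lower, and in BS 5. The largest called difference was at 58856670, in the coding exon, at 53.3% and 46.3% (shScr) against 31.7% and 25.8% (shTet3) (coverage 63 to 75, -21.3 points, q = 0.00292). The call was lost without shScr replicate 1 (-17.6 points) and without shTet3 replicate 2 (-18.3 points).

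Nnat encodes neuronatin, a small membrane proteolipid of the developing brain, and lies inside an intron of Blcap. Its 10 annotated TSSs are on chromosome 2 between 157385814 and 157386745, and 43 CpGs had coverage. The oxBS levels were 90.3% and 75.9% (shScr) against 69.1% and 84.1% (shTet3), so that the higher library was replicate 1 in shScr and replicate 2 in shTet3. The BS libraries of the same DNA kept this order, with 88.8%, 71.8%, 70.0% and 79.5%. The gap was greatest in the printed fragment, 256 to 329 bases downstream of the nearest TSS, where oxBS gave 88.4% and 56.7% (shScr) against 48.5% and 73.9% (shTet3), and BS gave 85.2%, 50.9%, 34.6% and 72.2%. Around the TSS itself, from -9 to 108 bases, the oxBS levels were 92.8%, 81.0%, 78.8% and 92.9%. Within the window 2 of 43 CpGs were called lower in oxBS. The largest of these was at 157387180, in an intron, at 75.9% and 76.3% (shScr) against 50% and 61.5% (shTet3) (coverage 65 to 108, -20.7 points, q = 0.000789). It was no longer called without shScr replicate 2 (-20.5 points) or shTet3 replicate 1 (-14.6 points).

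**Figure D2:**
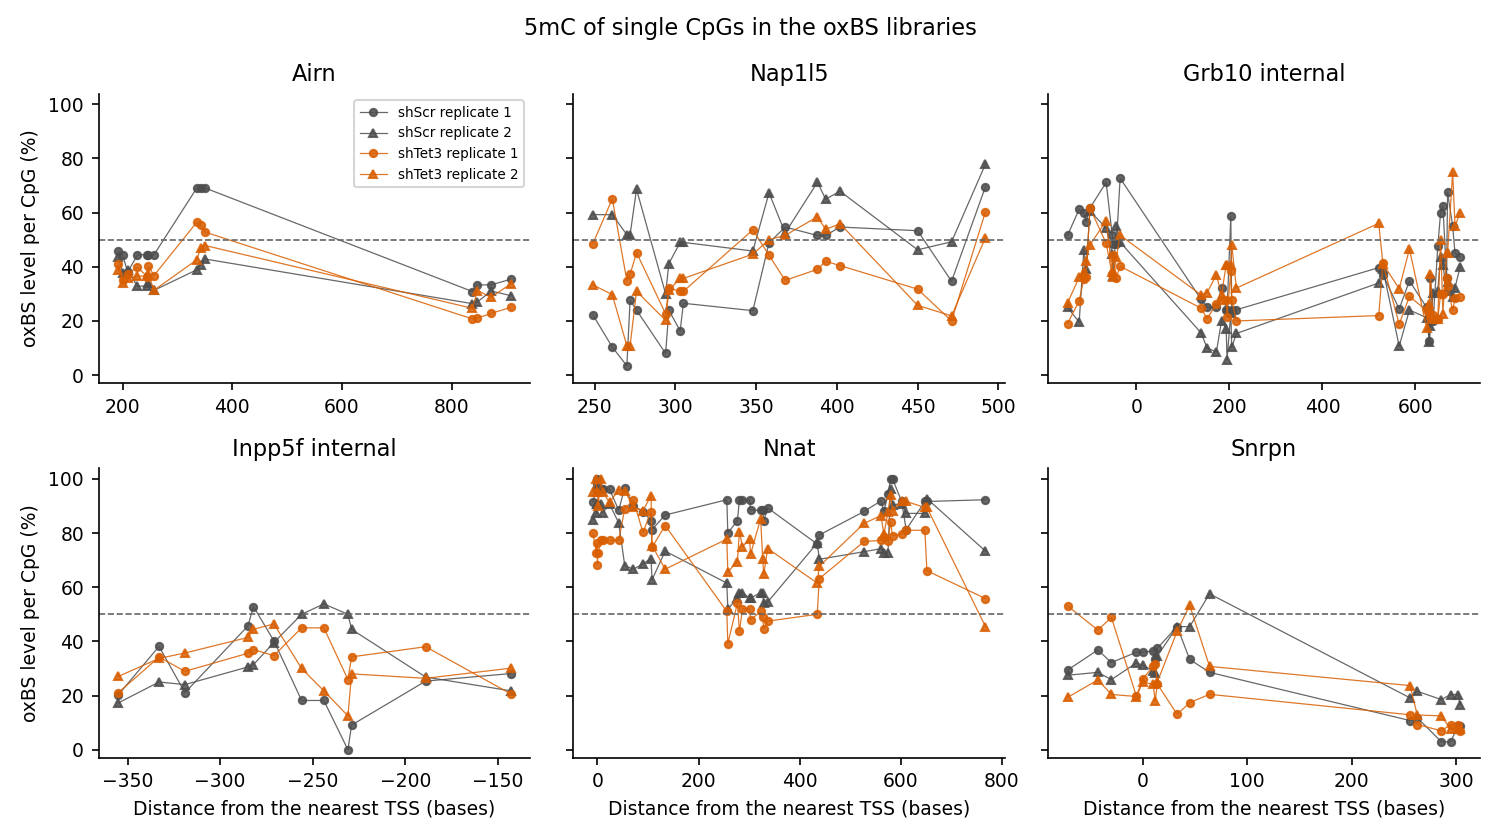
oxBS level (%) of single CpGs against the distance from the nearest TSS in bases, positive downstream, for 6 promoter regions, with grey for shScr, orange for shTet3, circles for replicate 1 and triangles for replicate 2; the upstream CpGs of Nnat beyond 1 kb are left out. Levels step between fragments, and in Nnat the libraries part most 256 to 329 bases downstream, where shScr replicate 1 averaged 88.4% and shTet3 replicate 1 48.5%.

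Inpp5f encodes an inositol polyphosphate phosphatase, and a shorter variant that starts at an internal promoter is the imprinted one. The upstream promoter, on chromosome 7 with TSSs at 135754842 and 135754874, had 30 CpGs in its 5′ UTR and intron at 0%, 2.11%, 0.716% and 1.35% in oxBS (shScr, then shTet3). The internal promoter, with TSSs at 135831060 and 135832003, had 12 CpGs in an intron at 26.4% and 34.6% (shScr) against 33.4% and 31.5% (shTet3). The groups overlapped there in oxBS. In BS the levels were 29.9% and 26.4% (shScr) against 37.3% and 35.6% (shTet3), which did not overlap, with shTet3 8.29 points higher. Of the 12 CpGs none was called in oxBS, and in BS 1 was called higher. The printed fragment was read at a median coverage of 26 in oxBS and varied from 18.5% to 44.1% between the shScr libraries, compared with 26.2% and 23.9% in BS.

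Grb10 encodes an adaptor protein that restrains growth-factor and insulin signalling, and its paternal copy is used in neurons from internal promoters. The upstream promoter, at 11937404 and 11938686 on chromosome 11, reverse strand, had 103 CpGs that averaged 14.1% and 12.2% (shScr) against 10.9% and 10.8% (shTet3). The level differed along the sequence, from under 5% in the fragment that begins at 11937004 to 74.0%, 78.1%, 63.4% and 52.3% in the fragment that begins at 11938628. There the CpG at 11938628, in the 5′ UTR, had the largest called difference of the gene, with 70.5% and 78.0% (shScr) against 57.5% and 31.1% (shTet3) (coverage 41 to 80, -26.1 points, q = 0.00143), a call lost without shScr replicate 2 (-22.5 points) or shTet3 replicate 2 (-16.6 points). The internal promoter, with TSSs between 11926327 and 11927974, had 35 CpGs at 42.7% and 29.4% (shScr) against 30.1% and 39.96% (shTet3). Both groups covered the same range, and their means were 36.1 ± 9.42% and 35.03 ± 6.97% (SD, n = 2). BS gave 48.9% and 35.3% (shScr) against 31.1% and 39.4% (shTet3), with the same library on top in each shRNA. Of its fragments, the printed one, in an intron just upstream of a TSS, was nearest to 50%, with 59.1%, 45.1%, 40.8% and 43.5%.

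Mest encodes a protein of the alpha/beta hydrolase fold and Plagl1 a zinc-finger transcription factor that restrains growth. At Mest, on chromosome 6, the listed CpGs were few and lay 775 to 1824 bases downstream of a TSS, in introns. The 2 CpGs near the early TSSs (30681968 to 30683506) read 74.2% and 79.0% (shScr) against 55.9% and 47.5% (shTet3). The 3 CpGs near the later TSSs (30688050 to 30692089) read 75.6% and 74.0% (shScr) against 60.5% and 48.6% (shTet3). Both sets thus had every shTet3 library below every shScr library, and 2 of the 5 CpGs were called lower. The CpG at 30685330, the second in the printed fragment, had 93.2% and 79.0% (shScr) against 58.2% and 47.5% (shTet3) (coverage 61 to 134, -32.5 points, q = 4.02e-09). The window differed by -22.1 ± 5.82 points (SE) in oxBS, with an adjusted p of 0.594 (limma). The BS window held 8 CpGs and averaged 60.9% and 46.5% (shScr) against 26.2% and 32.0% (shTet3). Only 3 CpGs had coverage in all 8 libraries. The fragment that begins at 30689254 gave 4 of the BS CpGs, at a median coverage of 15, and none in oxBS.

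At Plagl1, on chromosome 10, 20 CpGs within 175 bases of the first TSSs (12810497 to 12811589) had a low coverage, with a median of 20.5 calls in oxBS. They averaged 52.2% and 67.6% (shScr) against 43.7% and 61.4% (shTet3), which was the closest to 50% of all regions (6.22 points above it over the 4 libraries). The spread lay in single fragments. The one that begins at 12810429 read 87.8%, 62.6%, 26.2% and 73.6%, and the next, at 12810693, 31.2%, 72.6%, 60.4% and 57.3%. The region differed by -7.32 points in oxBS and 9.33 points in BS, but over 20 and 13 CpGs, as no CpG of the first fragment had sufficient BS coverage. The fragment at 12810693, which both chemistries read, differed by 6.98 points in oxBS and 12.7 points in BS, with overlapping groups in each. Of 21 Plagl1 CpGs 3 were called lower in oxBS and none of 13 in BS. The largest was at 12810994, in an intron, at 61.5% and 80% (shScr) against 23.5% and 28.6% (shTet3) (coverage 10 to 17, -43.8 points, q = 0.0085). This call was lost without any one of the 4 libraries, at -54.2 to -35.7 points. One further Plagl1 CpG, near the TSSs from 12833271, was at 23.1%, 12.5%, 28.6% and 7.69%.

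Snrpn encodes a spliceosomal protein and lies in the imprinted region of the Prader-Willi syndrome. Its 17 CpGs surround the TSS at 67150042 on chromosome 7, reverse strand, from 72 bases upstream to 304 bases downstream. The oxBS levels were 25.4% and 29.6% (shScr) against 22.6% and 22.1% (shTet3), so that all 4 lay at least 20 points under 50%. The shTet3 libraries were both lower in oxBS, by a difference of means of -5.08 points, but in BS the groups overlapped (31.2% and 24.9% against 26.2% and 20.01%). The fragment across the TSS read 35.6%, 35.8%, 27.7% and 28.6% in oxBS and the printed fragment in the intron read 7.06%, 19.5%, 8.37% and 9.56%. No Snrpn CpG was called in either chemistry.

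Counted CpG by CpG, a larger share of the imprinted promoters than of all listed CpGs lay near 50% in each library, by the least in shTet3 BS replicate 1, and this was not tested. The share of their CpGs between 35% and 65% was 19.5% and 20.1% in the shScr oxBS libraries and 23.5% in each shTet3 oxBS library. Over all listed CpGs it was 14.5% and 8.58% (shScr) against 20.7% and 18.8% (shTet3). In the BS libraries the members had 22.7%, 24.1%, 21.0% and 21.0%, and all CpGs 14.1%, 8.24%, 20.04% and 18.003%. The median distance from 50% was 38 and 30.6 points in shScr and 28.9 and 33.3 points in shTet3 in oxBS, compared with 46.9 to 48.2 points over all CpGs. The upstream Grb10 and Inpp5f promoters held many unmethylated CpGs. In oxBS, 33.2% to 35.6% of the CpGs of the imprinted promoters were under 10% methylated, compared with 53.6% to 55.9% of all listed CpGs. The shares near 50% were not adjusted for this difference in unmethylated CpGs. They therefore do not show that the partly methylated CpGs of these promoters lie nearer to 50% than others. Of the 8 gene windows 4 averaged 35% to 65% in oxBS, compared with 9.79% of all 15494 gene windows, most of them unmethylated. Among windows that averaged 20% to 80%, it was 4 of 6 members, compared with 44.5% of 3409 windows.

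**Figure D3:**
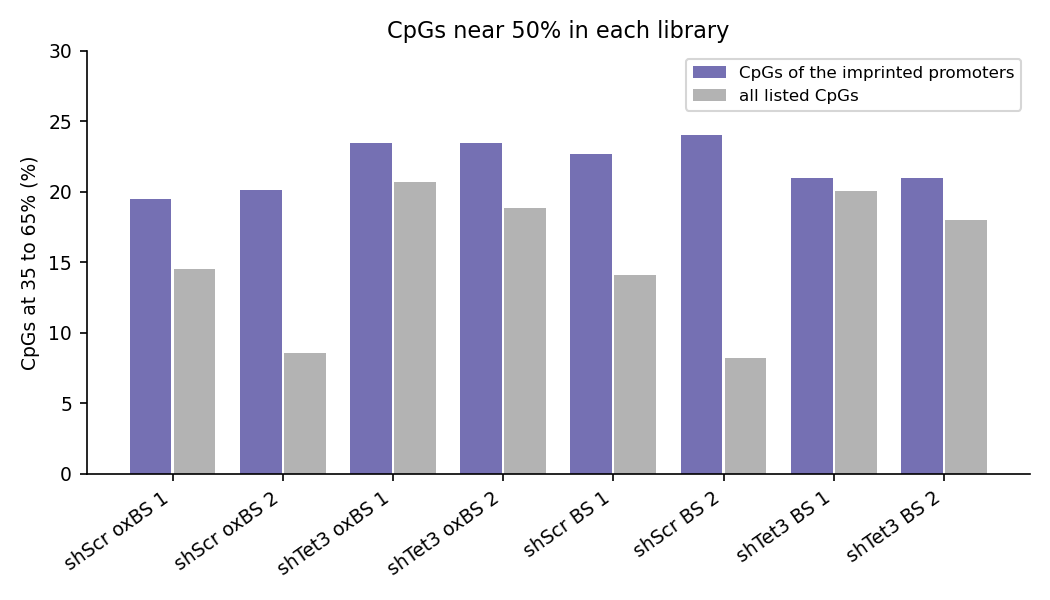
Share of CpGs (%) with a level from 35% to 65% in each of the 8 libraries, for the CpGs of the imprinted promoters (purple bars) and all listed CpGs (grey bars). The purple bars lie between 19.5% and 24.1%, whereas the grey bars range from 8.24% in a shScr library to 20.7% in a shTet3 library.

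The gap between single replicates was the second measure. In the oxBS libraries the shScr gap of the gene windows had a median of 8.08 points over the 8 members (0.968 to 22.1) and the shTet3 gap a median of 2.99 points (0.0902 to 15.8). Over all gene windows the medians were 1.03 and 0.461 points, but most gene windows are unmethylated. Among the 3409 gene windows that averaged 20% to 80% the medians were 9.74 and 4.005 points, and among the 6 imprinted windows in this range they were 12.8 and 6.97 points. In shScr, replicate 2 was above replicate 1 in 83.5% of the windows at 20% to 80%, by a median of 8.24 points. The imprinted windows at this level were split in oxBS, with Nap1l5, Plagl1, Snrpn and Mest higher in replicate 2, and Airn and Nnat lower. The Mest gap was only 0.968 points. In BS 2 of 6 were higher, compared with 83.2% of windows at this level, and Snrpn (-6.22 points) and Mest (-14.4 points) were lower.

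The same DNA was read by both chemistries, which gives a second reading of each gap. In shScr the gap had the same sign in oxBS and BS in 7 of 10 regions with 5 or more CpGs, and in shTet3 in 7 of 10, each chemistry with its own CpGs. Among gene windows at 20% to 80% the sign was shared by 2873 of 3195 in shScr and 2140 of 3195 in shTet3. The large shScr gaps were read by both, at -14.5 and -17.0 points for Nnat, -13.3 and -13.6 for the internal Grb10 promoter, -11.3 and -10.3 for Airn, 15.5 and 22.5 for Plagl1, and 22.1 and 14.1 for Nap1l5 (replicate 2 minus replicate 1, oxBS then BS). In shTet3 the internal Grb10 promoter (9.86 and 8.26 points) and Nnat (14.9 and 9.50) had like gaps, while the Plagl1 values, 17.7 and -5.13 points, came from different CpGs. On the Plagl1 fragment at 12810693, read by both, the shTet3 gaps were -3.07 and -3.59 points. Over these 10 regions and the 4 DNA samples the BS and oxBS levels differed by a median of 3.22 points, and the replicates by a median of 6.24 points. In gene windows at 20% to 80% these medians were 3.60 and 6.12 points.

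**Figure D4:**
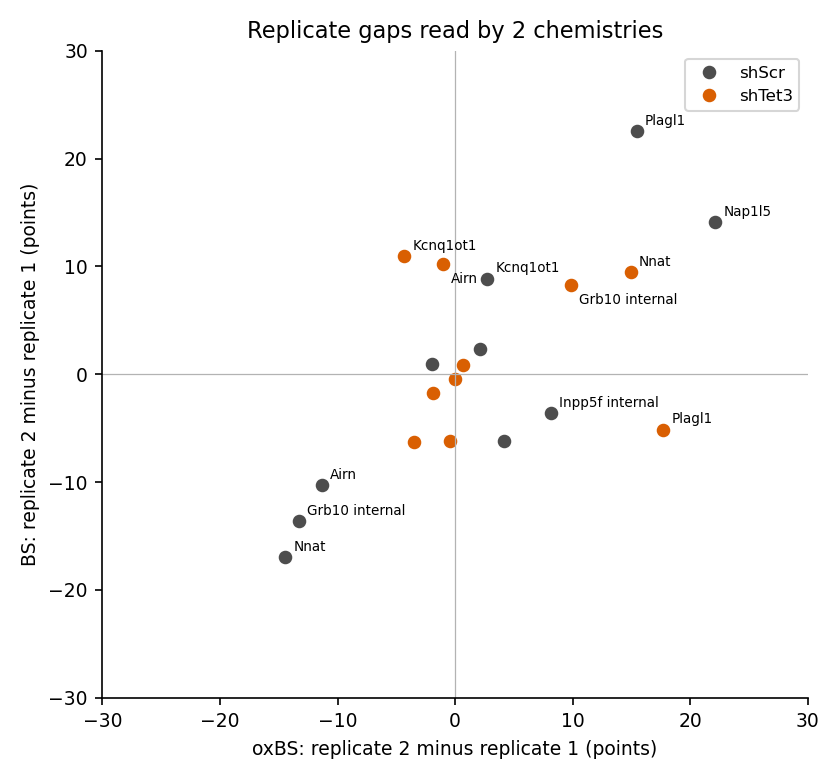
Replicate 2 minus replicate 1 in percentage points in the oxBS libraries (horizontal) and in the BS libraries (vertical), for 10 promoter regions with 5 or more CpGs, grey for shScr and orange for shTet3, with names where a gap exceeded 8 points. Nnat, the internal Grb10 promoter and Airn lie at the lower left for shScr and Nap1l5 and Plagl1 at the upper right, while the Plagl1 point for shTet3 (17.7 and -5.13) sets 20 oxBS CpGs against 13 BS CpGs, which are not all the same.

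Fisher's exact test on the reads of 2 libraries, which compares those libraries and not conditions, called few of these CpGs between replicates (q below 0.01 and over 10 points). In the shScr oxBS libraries, 6 of 299 CpGs were higher in replicate 2 and 2 were lower, where 4.87% and 0.6% of all CpGs were. In shTet3 oxBS, 2 of 312 were higher and 0 lower (0.329% and 0.161% of all CpGs). In shScr BS, 3 of 294 were higher (4.51% of all CpGs) and 11 were lower (0.596%). Of these 11, 9 lay in Nnat, where neighbouring CpGs can share reads. In shTet3 BS, 0 of 306 were called, with 0.232% and 0.101% of all CpGs higher and lower. Nap1l5 held 3 of the 6 shScr oxBS calls that were higher in replicate 2.

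The comparison of shTet3 with shScr asked whether 5mC at these promoters changed with the knockdown. The mean over the 8 members was 43.8% and 45.6% (shScr) against 37.0% and 39.2% (shTet3) in the oxBS libraries (44.7 ± 1.30% and 38.1 ± 1.57%, SD, n = 2). Both shTet3 libraries were lower, by a difference of -6.58 points, and 7 of the 8 members had a lower mean, Inpp5f being the exception, where 77.6% of all gene windows and 97.9% of those at 20% to 80% had a lower mean. The exact permutation test gave p = 0.333 (two-sided), which is the smallest that 2 against 2 libraries allow. The BS libraries gave 42.8% and 41.1% (shScr) against 35.3% and 36.6% (shTet3), a difference of -6.02 points with the same exact p of 0.333. With Kcnq1ot1 the differences were -7.38 and -7.34 points. Without Mest, which had the fewest CpGs and the largest difference, they were -4.36 and -3.37 points. The median difference over the members was -5.79 points in oxBS, beside -0.633 points over all gene windows and -11.3 points over those at 20% to 80%.

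**Figure D5:**
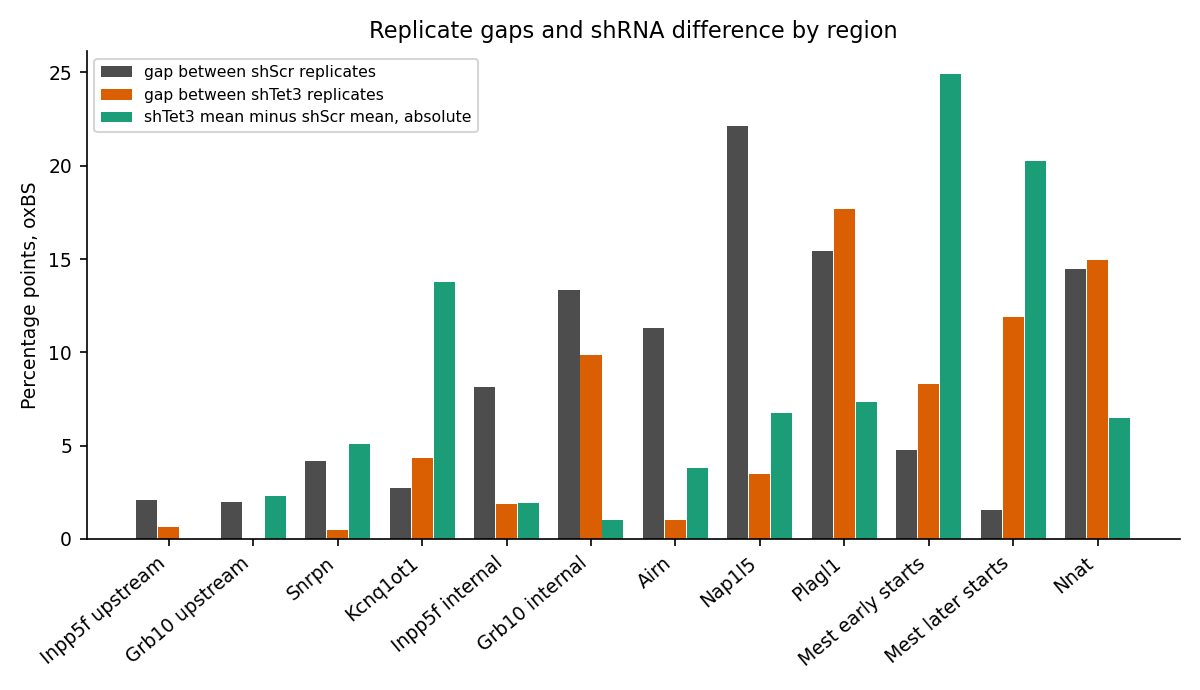
Absolute differences in percentage points in the oxBS libraries for each promoter region, ordered by mean level: the gap between the shScr replicates (grey), the gap between the shTet3 replicates (orange) and the difference between the shTet3 and shScr means (green). The green bar exceeds both gaps at Snrpn, Kcnq1ot1, the upstream Grb10 promoter and the Mest regions, and is smaller than the shScr gap at Nap1l5, Airn, Nnat, Plagl1, and the internal Grb10 and Inpp5f promoters.

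By gene window, the groups did not overlap in oxBS for 2 of 8 members (Mest and Snrpn, both lower in shTet3), where 39.4% of all gene windows were lower and 4.85% higher. Among windows at 20% to 80% this was 2 of 6 members against 70.8% of windows lower and 0.147% higher. In BS 3 of 8 members were lower (Grb10, Mest and Nap1l5) and Inpp5f was higher, with 40.8% of all gene windows lower and 4.52% higher, and at 20% to 80% 2 of 6 members were lower against 72.2% lower and 0.122% higher. Limma called no window in either direction, 0% of 15494 in oxBS and 0% of 15434 in BS at an adjusted p of 0.05, while 1236 and 1250 windows had an unadjusted p under 0.05. By limma, Mest was under 0.05 unadjusted in both chemistries (p = 0.0209 and 0.0222, without a permutation test) and no other member was, while Kcnq1ot1, fitted as an addition, was too (p = 0.0145 and 0.0372). The Mest windows held 5 CpGs in oxBS and 8 in BS, of which 3 were shared, so they are not 2 readings of the same CpGs. The adjusted p of the members ranged from 0.594 for Mest to 0.919 for Inpp5f in oxBS.

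Logistic regression per CpG called 15 of 298 CpGs hypomethylated in shTet3 and 0 hypermethylated in oxBS, or 5.03%, where 13.9% of all 662455 CpGs were called hypomethylated and 0.0814% hypermethylated. Of the 15, Grb10 had 6, Plagl1 3, and Mest, Nap1l5 and Nnat 2 each, and Airn, Inpp5f and Snrpn had none. Without shTet3 replicate 1 the count was 4 of 298, with 8.72% of all CpGs. Without shScr replicate 2, the library with the highest mean level, 12 of 298 were hypomethylated and 3 hypermethylated, beside 5.79% and 0.435% of all CpGs, so that the hypomethylated count then lay near the background. In BS 17 of 291 were hypomethylated and 1 hypermethylated (13.8% and 0.0621% of all CpGs). Grb10 had 8 of these, Nap1l5 5, Mest 2, and Nnat and Inpp5f 1 each, and the hypermethylated CpG lay in the internal Inpp5f promoter. The BS count was lower without shTet3 replicate 1. Without shScr replicate 2 the share called at these promoters lay near that of all CpGs in BS too. As unmethylated CpGs cannot lose 5mC, the counts were repeated for CpGs that averaged 20% to 80%. There 13 of 151 CpGs of the imprinted promoters were hypomethylated and 0 hypermethylated in oxBS, with 33.7% and 0.112% of all such CpGs, and in BS 14 of 137 and 1, with 34.7% and 0.0898%. An F test with an overdispersion term called 0 CpGs, of these promoters and over all CpGs, and 1 CpG of these promoters had an unadjusted p under 0.05 in each chemistry.

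A BS level above the oxBS level of the same DNA is the reading of 5hmC, and a level below it is error. The paper detected few hydroxymethylated CpGs in these cells, at a high false discovery rate. In shScr 2 of 283 CpGs were called with a higher level in BS and 0 the other way, where 0.33% and 0.17% of all CpGs were, and both lay in the internal Grb10 promoter. Without replicate 2 there were 7 with BS above and 4 with BS below (0.663% and 0.462% of all CpGs), and without replicate 1 there were 0 of either. In shTet3 0 of 305 were called in either direction (0.0239% above and 0.0141% below over all CpGs). A few were called with BS above oxBS when replicate 2 was left out, where calls in both directions were also more frequent over all CpGs. The internal Grb10 promoter read 6.18 and 5.85 points higher in BS in the shScr replicates and 1.02 and -0.568 points in the shTet3 replicates, a contrast that was not tested. These means join unlike fragments. The fragment that begins at 11925631 read higher in BS in all 4 DNA samples, by 21.0 and 14.6 points (shScr) and 11.9 and 8.31 points (shTet3). The fragment at 11925922, with a median BS coverage of 20.5, gave -9.16 and 2.70 points (shScr) and -22.3 and -20.9 points (shTet3). Airn had 2.23 and 3.27 points in shScr and -7.09 and 4.20 in shTet3, so the sign varied with the library. Its fragment at 12935102 was higher in BS in all 4 DNA samples, by 10.3 and 5.34 points (shScr) and 10.2 and 9.77 points (shTet3). The printed Snrpn fragment was too, by 21.5 and 4.79 points (shScr) and 7.84 and 9.33 points (shTet3). The fragments at 11925631 and 12935102 and the printed Snrpn fragment were picked for their like signs, which were not tested. No Airn or Snrpn CpG was called between BS and oxBS in either shRNA. The printed Nnat fragment went the other way in all 4 DNA samples, at -3.14 and -5.86 points (shScr) and -13.9 and -1.68 points (shTet3). In many other fragments the sign varied between the samples.

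Other imprinted genes give a frame for these values. Over all gene windows in oxBS, 39.4% were lower and 4.85% higher in shTet3 without overlap, and 77.6% had a lower mean. Of 7 further genes with a maternally methylated region, 5 had a window in oxBS. Of these, 2 were lower (Gnas and Slc38a4) and 2 higher (Peg10 and Zrsr1) in shTet3 without overlap. Mcts2 had a higher mean with overlapping groups. The paper names the genes with a higher mean as hypermethylated in the same data, so they are not a separate finding. The largest oxBS difference among the 5 was that of Peg10, at 29.9% and 9.85% (shScr) against 43.6% and 31.2% (shTet3). In BS Peg10 overlapped, at 47.2% and 8.94% (shScr) against 27.4% and 30.9% (shTet3). Zrsr1 overlapped in BS too, while Gnas and Slc38a4 stayed lower without overlap. Of 4 genes near a paternally methylated region 3 had a window, all 3 lower, led by Meg3 with 71.8% and 81.0% (shScr) against 59.3% and 57.0% (shTet3). Of 17 imprinted neighbours 14 had a window and 11 a lower mean, led by Magel2 (48.1%, 51.4%, 36.7% and 30.2%), and the window of Blcap includes the CpGs of Nnat. Of 9 imprint maintenance factors 7 had a window and 6 a lower mean, led by Dnmt3l (28.5%, 48.4%, 26.1% and 28.8%). None of these genes passed limma at an adjusted p of 0.05. The promoters of the neural genes Nes, Tubb3 and Sox2 were under 9% in all libraries and Pax6 was at 47.0%, 33.3%, 32.3% and 30.6%, while of the pluripotency genes Pou5f1, Esrrb and Zfp42 ranged from 16.7% to 55.1% in oxBS, Tcl1 had 3 CpGs and Nanog had none listed.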

How the data were processed

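According to the study's methods and the labels' processing notes, reads were trimmed with Trim Galore in RRBS mode, aligned to mm9 with Bismark and processed with methylKit. Per library, the authors deposited one row per CpG with an unnormalized count (coverage) and the percent of that coverage called C and called T. Methylated counts were recovered as percent times coverage, whole within 0.01 at 100% of CpGs. All 757812 positions were the C of a forward-strand CpG of mm9. The lowest coverage was 5, and a minimum of 10 was set in the libraries compared. Gene levels were unweighted means over CpGs. The tests were an exact permutation test over libraries, a logistic likelihood ratio test per CpG (q below 0.01, over 10 points), Fisher's exact test between replicates, and limma 3.58.1 with trend on gene windows with 5 or more CpGs, all but the permutation test with Benjamini-Hochberg adjustment over all features. Islands were predicted in windows of 200 bp (GC at least 50%, observed over expected CpG at least 0.6). The logistic test and limma were run on simulated data. For the logistic test the simulated replicates shared the same level, so this was no check of how it handles spread between replicates. BS and oxBS libraries with the same shRNA and number come from the same DNA per the labels, and their replicate gaps over gene windows correlated at 0.816 in shScr and 0.412 in shTet3. Members, lists and tests were chosen with earlier results of these data known. The named CpG of a gene is the called one with the largest absolute oxBS difference. From each list the gene with the largest oxBS window difference is named. Sequences came from NCBIM37, and the Kcnq1ot1 promoter from RefSeq.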

Additional observations from a re-analysis of the deposited data

How the results depend on the processing

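The differences of the members' mean kept their direction under every alternative tried, from -7.56 to -5.47 points in oxBS and from -7.55 to -5.32 points in BS when a library was left out. A window of 1 kb brought the BS difference to -3.67 points. A replicate block pairs shScr and shTet3 by number, which the labels do not explain. Their replicate gaps correlated at 0.0535 in oxBS and 0.0716 in BS. In this balanced design a block cannot change the difference of means, so it is no check of -6.58 and -6.02 points. With the block the calls stayed at 15 and 17, beside 14.5% and 14.3% of all CpGs, and it changed no other call. The 15 oxBS calls became 9 with Fisher's exact test on pooled counts, which called 12.7% of all CpGs hypomethylated. They became 0 with the overdispersion F test, which also gave 0 in place of the 17 BS calls. Leaving out a library gave 4 to 17 hypomethylated calls in oxBS and 10 to 15 in BS, the lowest without shTet3 replicate 1. Hypermethylated calls in oxBS appeared when either shScr replicate was left out, and in BS their number rose or fell with the library left out. The share of all CpGs called hypermethylated also changed with the library left out. BS above oxBS gave 0 to 7 calls in shScr and 0 to 2 in shTet3 when a replicate was left out. The share of CpGs near 50% averaged 21.6% over the oxBS libraries and 38.9% in the wider range of 25% to 75%. Single windows were less stable: when a library was left out the oxBS difference ran from -9.46 to 1.86 points for Airn, -4.41 to 0.445 for Grb10, -1.39 to 2.45 for Inpp5f, -17.8 to 4.32 for Nap1l5, -14.0 to 0.971 for Nnat and -14.9 to 0.965 for Plagl1, and the BS difference from -14.1 to 2.87 for Nnat and -1.94 to 20.6 for Plagl1. On the log2 odds scale Inpp5f was at -0.00699 in oxBS. The cause of these changes was not tested. Adding Kcnq1ot1, leaving out Mest and keeping only CpGs at 20% to 80% were chosen after seeing the data. Depth limits Plagl1 and Mest most, with a median oxBS coverage of 20 and 30.5 calls.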
